A study of Homo sapiens with 4 samples.

Results

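The 45 genes described here encode the proteasome, the barrel-shaped protease that degrades ubiquitin-tagged proteins. They are the protein-coding genes of the deposited table whose symbols run from PSMA to PSMG followed by a number, leaving out PSMB8, PSMB9 and PSMB10, and they make up 45 of 58735 genes. By position in the complex, 16 encode the core particle, 17 the regulatory particle, 7 the assembly factors and 5 the other caps and the inhibitor. RNA-seq was done on 4 libraries of a human lung squamous cell carcinoma cell line, with 2 library names marked 0 Gy and 2 marked 30 Gy. The series is described as a comparison of SK-MES-1, an established lung squamous carcinoma line, with a radiotherapy-resistant derivative of it, SK-MES-1-RR. The labels give every library the same cell line, tissue and genotype entries, so it cannot be said which libraries came from which line, nor how the dose was given or how long before harvest. Nothing in the labels says that the libraries came from separate cultures, and a p-value here covers the differences among these libraries alone, which may be technical.

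In the core particle, rings of alpha subunits (PSMA genes) gate the entry and rings of beta subunits (PSMB genes) hold the proteolytic sites. The regulatory particle sits on the core: its base unfolds the substrate with a ring of ATPases (PSMC genes), and its lid removes the ubiquitin chain. Dedicated chaperones (PSMG genes and several PSMD genes) assemble both, the PSME genes encode other caps, and the factor NFE2L1 (NRF1) is known to drive proteasome genes through antioxidant response elements when proteasome activity falls short.

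The libraries held between 15920861 and 17261121 reads assigned to genes, and mitochondrial genes took 6.11% to 7.13% of them. The squamous keratins KRT5 and KRT6A were at 0 reads in all 4 libraries and KRT14 reached at most 0.110 FPKM (fragments per kilobase of exon, scaled to the size of the library). TP63, the squamous lineage factor, went from 4.04 ± 0.128 to 3.26 ± 0.105 FPKM. It did not pass with limma (adjusted p = 0.102) and passed with limma-voom on recovered reads (adjusted p = 0.0424). SOX2, also on the squamous list, went from 0.173 ± 0.112 to 0.512 ± 0.0517 FPKM. It had 4 to 22 reads a library and was not tested. Of the 6 epithelial markers, the keratins KRT7, KRT8, KRT18 and KRT19 ranged from 35.7 to 221 FPKM, EPCAM stood at 3.42 to 5.91 FPKM, and the cadherin CDH1 did not exceed 0.0667 FPKM and was at 0 in both 30 Gy libraries. KRT7 rose from 95.8 ± 0.615 to 211 ± 14.2 FPKM (limma adjusted p = 0.00232) and KRT19 fell from 162 ± 4.27 to 88.4 ± 6.18 FPKM (limma adjusted p = 0.00424). Immune and endothelial markers did not exceed 0.115 FPKM. Of the 4 fibroblast markers, DCN was at 0 and COL1A2 at or near 0. PDGFRB went from 0.685 ± 0.0460 to 1.48 ± 0.0347 FPKM and COL1A1 from 62.2 ± 0.182 to 72.9 ± 4.76 FPKM. Neither passed with limma (adjusted p = 0.0535 and 0.0795), and both passed with limma-voom on recovered reads (adjusted p = 0.00109 and 0.0190). The part of these marker differences in the changes of the proteasome genes was not tested.

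The binding element of the NRF factors was looked for in the members' promoters, since these genes are known to be controlled together through it. The core of the element, TGACNNNGC, was searched on both strands in the windows from 250 bases before to 50 bases after the gene starts (RefSeq, GRCh38.p14), which matched 39 of the 45 members. It stood in 14 of them (35.9%), against 18.0% of 14896 protein-coding genes with windows of the same length. A gene with several windows counted if any of them held the element, so the length searched was not the same for every gene. The sites of the 3 holders that passed the test of 30 Gy against 0 Gy are printed here with the element in capitals and 16 bases on either side. They lie at chr9:120843032-120843072 on the minus strand for PSMD5, at chr17:63827648-63827688 on the plus strand for PSMC5, where the element reads on the opposite strand, and at chr14:24136092-24136132 on the plus strand for PSME1.
PSMD5: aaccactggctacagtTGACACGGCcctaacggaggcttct
PSMC5: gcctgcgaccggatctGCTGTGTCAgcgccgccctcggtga
PSME1: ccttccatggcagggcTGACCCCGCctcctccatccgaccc
PSMD5 and PSMC5 rose and PSME1 fell, so holders of the element went in both directions. Over all 14 holders, which were all tested, 2 rose, 1 fell and the median log2 change was 0.06. Over the 22 tested members without it, 2 rose, 1 fell and the median was 0.03. In the same test 10.8% of all tested genes rose and 9.06% fell. Counts this small do not set holders apart from the other members or from all genes. A match of letters is not evidence of binding. The CCAAT box, a common promoter element, counted in the same way, stood in 48.7% of the members with windows and 42.3% of all protein-coding genes with windows.

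Between 0 and 30 Gy most proteasome genes changed little. Of the 42 members tested, 6 rose and 2 fell (limma on log2(FPKM + 1), Benjamini-Hochberg adjusted p under 0.05 over 13379 genes), that is 14.3% and 4.76%, where 10.8% of all tested genes rose and 9.06% fell. These shares of all tested genes, used throughout, include many genes at lower levels than most members. With the filter raised to 5 FPKM, 7 of 39 members rose and 2 fell. Of the 7734 genes tested there, 1417 rose and 1203 fell, a larger share than at the lower filter. The median log2 change was 0.05 over the members and -0.00 over all tested genes, and the median size of change was 0.13 over the members and 0.20 over all. The 30 Gy libraries both lay above both 0 Gy libraries for 19 of 42 members, or 45.2%, and both lay below for 10, or 23.8%, while these shares were 32.9% and 32.3% of all tested genes. In bulk RNA a change of this kind cannot be told apart from a change in the share of cells of one kind in the culture. The summed level of all 45 members was 1775 and 1667 FPKM at 0 Gy and 1853 and 1876 FPKM at 30 Gy, which is 0.622% and 0.610% of all FPKM against 0.661% and 0.650%. The sums of the core and of the regulatory particle were higher in both 30 Gy libraries than in both at 0 Gy, and those of the assembly factors and of the other caps were lower. Single genes weigh heavily in these sums. The mean sum of the core went from 781 to 853 FPKM, with PSMA7 from 91.2 to 124 and PSMB6 from 61.4 to 79.2 FPKM. That of the regulatory particle went from 651 to 743 FPKM, with PSMD2 from 88.8 to 137 FPKM. That of the caps and inhibitor went from 161 to 148 FPKM, with PSME1 from 60.5 to 49.5 FPKM. Log2 changes lay above and below 0 for 10 and 3 tested core genes, 11 and 6 of the regulatory particle and 3 and 2 caps.

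**Figure D1:**
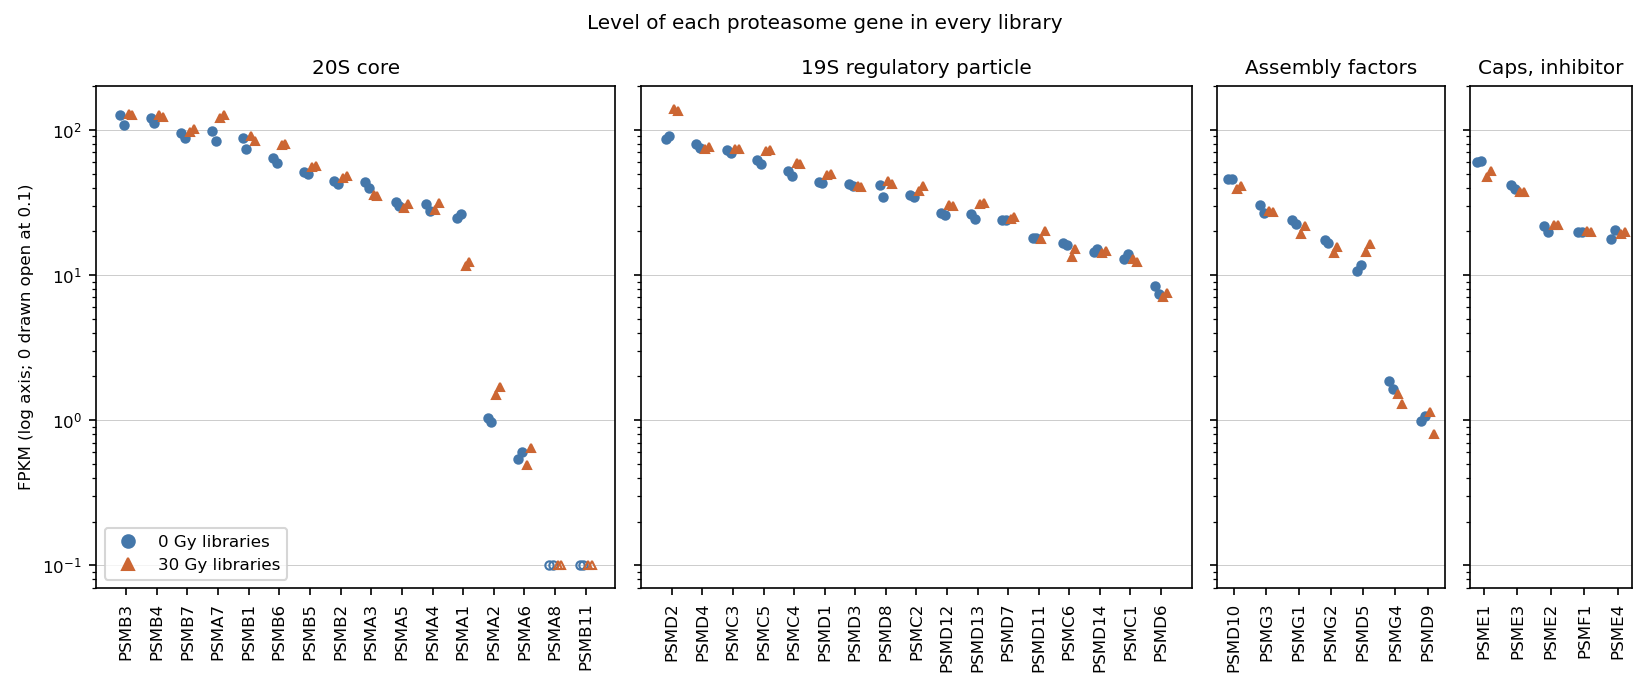
FPKM of each proteasome gene in each of the 4 libraries on a log axis, by position in the complex, with 0 Gy libraries as circles, 30 Gy libraries as triangles and levels of 0 drawn open at the bottom. PSMA1 separates downwards at 30 Gy (11.6 and 12.2 FPKM against 24.9 and 26.4) and PSMD2 upwards (140 and 135 FPKM against 87.0 and 90.5).

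The calls depended on having all 4 libraries. With 1 left out, the spread comes from the other group's 2 libraries alone, and the lone library is assumed to vary like them. With either 30 Gy library left out and the same genes tested, limma called 898 and 862 genes in place of 2654, or 1317 and 1411 with the filter on low values applied again to the 3 libraries left. With either 0 Gy library left out and the same genes tested, limma called 0 genes of 13379, although 3422 and 3460 had an unadjusted p under 0.05. With the filter applied again, 592 and 623 genes passed. PSMA1 and PSMD2 passed under every setting tried that kept all 4 libraries and with either 30 Gy library left out, and with the filter applied again they passed in all 4 omissions. No other member did so.

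PSMA1, an alpha ring subunit, fell most among the members. It stood at 24.9 and 26.4 FPKM at 0 Gy and at 11.6 and 12.2 FPKM at 30 Gy, with no overlap. The level was 2.16-fold lower, from 25.7 ± 1.10 to 11.9 ± 0.459 FPKM (SD, n = 2), and the log2 change was -1.05 ± 0.07 (SE, limma adjusted p = 0.00257). With 1 library left out, limma's adjusted p lay between 0.0226 and 0.0775, above 0.05 without either 0 Gy library. Relative to the alpha subunit PSMA3, PSMA1 went from 56.7% and 66.5% to 32.5% and 34.9%. Proteasomes hold PSMA1 and PSMA3 protein in equal number, while the transcripts of these ring partners changed unequally.

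PSMA1 (ENSG00000129084) lies at chr11:14504874-14643635 (hg38) on the minus strand, and its neighbours were lower at 30 Gy as well. Of 51 tested genes within 5 Mb, 31 fell and 1 rose, with a median log2 change of -0.80, whereas the median over 729 tested genes of chromosome 11 was 0.02. Of the 7 tested within 1 Mb, PSMA1 not counted, 6 fell and 0 rose, with a median of -1.09. COPB1, a coatomer subunit whose gene is next to PSMA1, fell from 95.8 ± 1.41 to 47.9 ± 1.62 FPKM. RRAS2, a RAS-like GTPase, fell from 36.2 ± 2.97 to 16.5 ± 2.21 FPKM, and FAR1, a fatty acyl-CoA reductase, from 35.0 ± 1.26 to 16.99 ± 1.53 FPKM. CYP2R1, a vitamin D hydroxylase on the other side, fell from 8.74 ± 0.128 to 4.67 ± 0.224 FPKM. The other members on the same chromosome did not fall: PSMD13 rose, with a neighbour median of 0.03, and PSMC3 changed by 0.06 without passing, although its 47 tested neighbours had a median of -0.20, with 4 higher and 9 lower. The part of the chromosome region in the fall of PSMA1 was not tested.

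**Figure D2:**
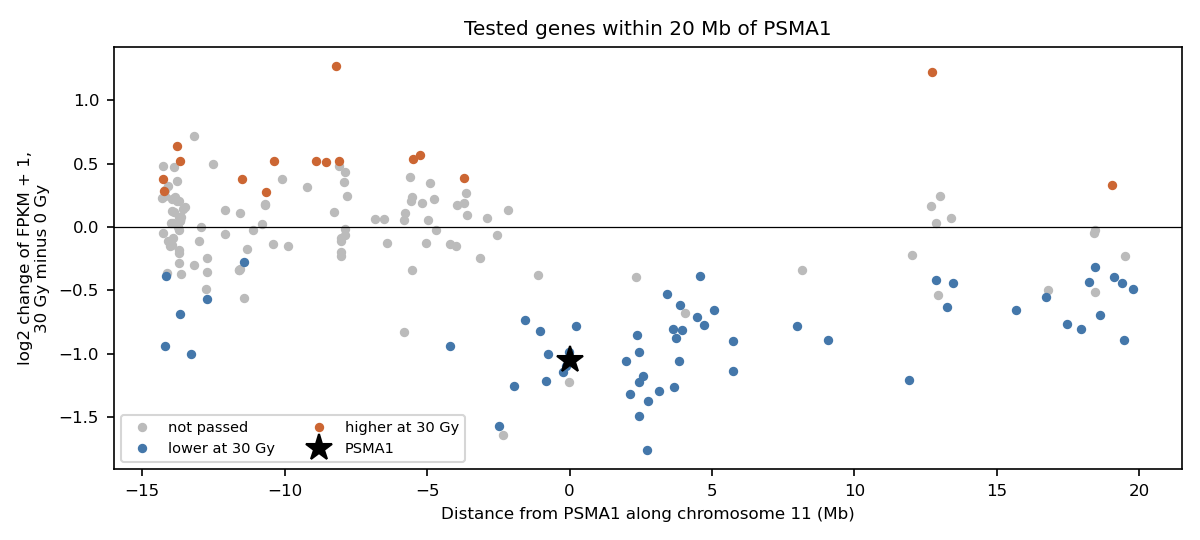
Log2 change, 30 Gy minus 0 Gy, of tested genes against their distance in Mb from PSMA1, each point 1 gene, with PSMA1 marked and genes past the test coloured by direction. Points around PSMA1 sit mostly below 0, with a median of -0.80 within 5 Mb.

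Among the other alpha subunits, PSMA7 rose and PSMA3 did not pass. PSMA7 stood at 98.2 and 84.1 FPKM at 0 Gy and at 121 and 126 FPKM at 30 Gy, so the groups did not overlap. It was 1.36 times higher (log2 change 0.44 ± 0.09, limma adjusted p = 0.0319). With 1 library left out its log2 change lay between 0.33 and 0.55, and the call was not kept in every omission. Of 64 tested genes within 5 Mb of PSMA7, 8 rose and 1 fell, with a median log2 change of 0.11, and the median of chromosome 20 was 0.16. PSMA3 went from 41.8 ± 2.92 to 35.3 ± 0.439 FPKM, with a log2 change of -0.24 and an adjusted p of 0.0771 in limma. The 48 genes tested around it had a median of -0.23, with 1 higher and 9 lower. The part of this region in the change of PSMA3 was not tested. PSMA4 was at 29.1 ± 2.19 and 29.6 ± 2.32 FPKM and PSMA5 at 30.6 ± 1.36 and 29.99 ± 1.32 FPKM, and the groups overlapped for both. PSMA8, the testis form of an alpha subunit, had 0 reads in all 4 libraries, where 3 reads would be 0.0910 to 0.0996 FPKM. Over the 6 tested alpha subunits the median log2 change was -0.00.

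PSMA2 and PSMA6, which every proteasome also needs, were listed far lower than the rest of the ring. PSMA2 stood at 1.03 and 0.970 FPKM at 0 Gy and at 1.48 and 1.70 FPKM at 30 Gy, from 88 to 144 reads, and did not pass (log2 change 0.37 ± 0.13, limma adjusted p = 0.118). On the recovered reads, where no pseudocount of 1 FPKM shrinks a low gene, its log2 change was 0.64 and it passed with voom (adjusted p = 0.0367). PSMA6 was at 0.572 ± 0.0474 and 0.564 ± 0.104 FPKM, which was under the filter. In the annotation the table uses (GENCODE v29), 100% of the coding bases of PSMA2 are also exons of the read-through gene AC010132.3 on the same strand. The share was 89.7% for PSMA6 (AL121594.1), 91.0% for PSMA1 (AC018523.2) and 68.3% for the base chaperone PSMD9 (AC069503.2), while no other member exceeded 0.139%. The read-through genes themselves held 0 to 10 reads. The level of PSMD9 was 1.02 ± 0.0545 and 0.972 ± 0.240 FPKM. How shared reads were counted is not given in the sources used here, so the levels of these 4 genes are uncertain, and the part of the overlap in them was not tested. PSMA6 also has 4 annotated pseudogenes, whose reads came to between 4.55% and 29.4% of its own.

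**Figure D3:**
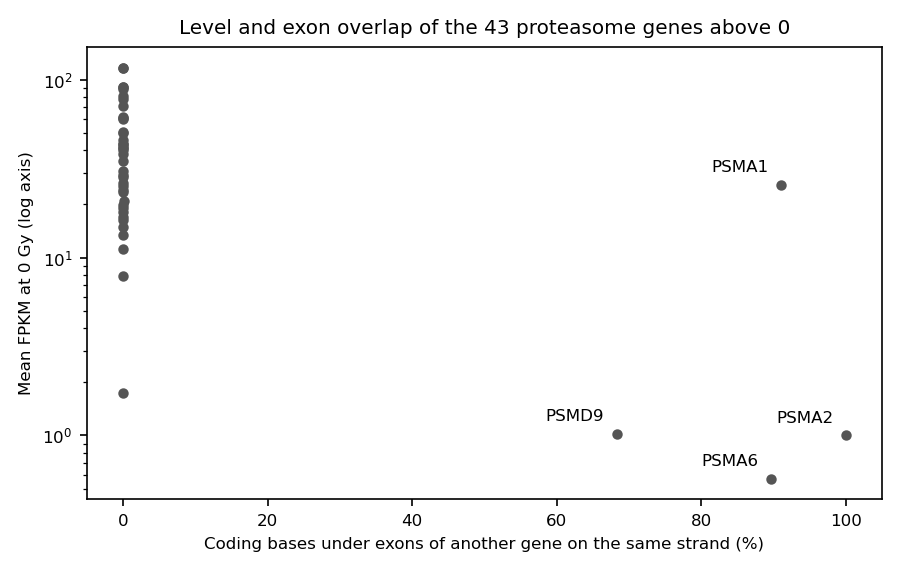
Mean FPKM at 0 Gy on a log axis against the percent of coding bases shared with another gene's exons on the same strand, for the 43 members above 0, each point 1 gene. Apart from PSMG4 at 1.74 FPKM, the lowest levels belong to overlapped members: PSMA6 at 0.572, PSMA2 at 1.0 and PSMD9 at 1.02 FPKM, while PSMA1, also overlapped, is at 25.7 FPKM.

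The beta subunits hold the proteolytic sites. All 7 that were tested had log2 changes above 0, between 0.10 and 0.36, and 5 of them did not overlap between the groups, but 1 passed. Of all 13379 tested genes, 6675 had a change above 0, 32.9% were non-overlapping above, and 10.8% rose, close to the 14.3% of these 7. PSMB6, the caspase-like subunit, stood at 63.8 and 59.1 FPKM at 0 Gy and at 78.7 and 79.7 FPKM at 30 Gy. It was 1.29 times higher (log2 change 0.36 ± 0.06, limma adjusted p = 0.0232, and 0.0871 to 0.126 with 1 library left out, whichever it was). Of 143 tested genes within 5 Mb of PSMB6, 22 rose and 2 fell, with a median log2 change of 0.10. The part of the region in the rise of PSMB6, as in that of PSMA7, was not tested. The trypsin-like subunit PSMB7 was at 91.5 ± 4.5 and 99.5 ± 3.45 FPKM. The chymotrypsin-like subunit PSMB5, the main target of bortezomib, was at 50.6 ± 0.998 and 55.8 ± 0.565 FPKM (limma adjusted p = 0.143). Neither passed, although neither overlapped between groups.

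The remaining beta subunits are structural, and PSMB3 and PSMB4 among them had the highest FPKM of the core at 0 Gy. PSMB3 was at 117 ± 12.7 and 127 ± 1.42 FPKM, PSMB4 at 116 ± 5.96 and 125 ± 2.69 FPKM, and PSMB1 at 80.9 ± 9.33 and 86.6 ± 4.82 FPKM. PSMB2 was at 43.5 ± 1.75 and 47.5 ± 1.23 FPKM. None of these 4 passed. The thymus-specific PSMB11 had 0 reads in all 4 libraries, where 3 reads would be 0.0817 to 0.0894 FPKM.

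Core subunits are present in equal number in the particle, and their transcript levels were not equal. Leaving out PSMA8, PSMB11 and the overlapped members, the 11 remaining core genes spread 4.02-fold at 0 Gy, from PSMA4 at 29.1 FPKM to PSMB3 at 117 FPKM, and 4.27-fold at 30 Gy. The order depends on the gene length used: the table divides by all exons of a gene, and per length of the principal transcript the spread was 5.62-fold and PSMB4 was highest. At 0 Gy the top 5 of all members in FPKM were PSMB3, PSMB4, PSMB7, PSMA7 and PSMD2, of which PSMB3 and PSMB4 (117 and 116 FPKM), and likewise the other 3 (91.5, 91.2 and 88.8 FPKM), lay within their spread. At 30 Gy PSMD2 stood first at 137 FPKM. Per length of the principal transcript PSMB4 was highest at 30 Gy, at 281, with PSMA7 and PSMD2 each at 217.

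In the regulatory particle 3 of 17 members rose and 0 fell, with 10 non-overlapping above and 2 below. These are 17.6% and 0% called, against 10.8% and 9.06% of all tested genes, and 58.8% and 11.8% non-overlapping, against 32.9% and 32.3%. PSMD2, the scaffold of the base that binds ubiquitin-like domains, rose most among all members. It stood at 87.0 and 90.5 FPKM at 0 Gy and at 140 and 135 FPKM at 30 Gy, with no overlap. The level was 1.55 times higher, from 88.8 ± 2.45 to 137 ± 3.12 FPKM (SD, n = 2), and the log2 change was 0.62 ± 0.06 (SE, limma adjusted p = 0.00568). With 1 library left out, limma's adjusted p lay between 0.0352 and 0.0847, above 0.05 without either 0 Gy library. Of 61 tested genes within 5 Mb of it on chromosome 3, 3 rose and 9 fell, with a median log2 change of -0.19. PSMD1, the other large scaffold of the base, went from 43.5 ± 0.607 to 49.2 ± 0.592 FPKM without passing (limma adjusted p = 0.0900), so that PSMD2 relative to PSMD1 went from 198% and 210% to 286% and 272%. The ubiquitin receptor PSMD4 was at 77.5 ± 3.72 and 75.0 ± 1.36 FPKM, with overlapping groups.

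Of the 6 ATPases of the base, PSMC5 passed. It stood at 62.0 and 58.3 FPKM at 0 Gy and at 71.9 and 73.2 FPKM at 30 Gy, which was 1.21 times higher (log2 change 0.27 ± 0.06, limma adjusted p = 0.0421, and 0.121 to 0.175 with 1 library left out, whichever it was). Of 91 tested genes within 5 Mb of it, 10 rose and 1 fell, with a median of 0.04. PSMC4 came next, at 49.9 ± 2.58 and 58.7 ± 1.10 FPKM, and passed with voom (adjusted p = 0.0379) but not with limma (adjusted p = 0.0664). PSMC2 was at 34.9 ± 0.705 and 39.3 ± 2.22 FPKM and PSMC3 at 71.0 ± 2.16 and 73.9 ± 0.163 FPKM. The other 2 ATPases lay lower at 30 Gy, in both libraries, without passing. PSMC6 was at 16.4 ± 0.431 and 14.2 ± 1.31 FPKM, and PSMC1 at 13.4 ± 0.630 and 12.5 ± 0.416 FPKM. Both are on chromosome 14, where the median log2 change over all 435 tested genes was -0.16. Of the 6 tested members on it, 4 had changes below 0, while PSMB5 (0.14) and PSME2 (0.09) had changes above 0. The part of the chromosome in these changes was not tested. Of the exon bases of PSMC1, 75.8% lie opposite exons of NRDE2. Of those of PSMC5, 19.5% lie opposite exons of FTSJ3, as do 10.0% of its coding bases, and FTSJ3 stood at 24.3 to 26.6 FPKM. Whether reads were counted by strand is not given in the sources used here.

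In the lid 1 of 8 members rose, PSMD13, which is 12.5% against 10.8% of all tested genes. It stood at 26.4 and 24.1 FPKM at 0 Gy and at 31.0 and 31.1 FPKM at 30 Gy, 1.23 times higher (log2 change 0.29 ± 0.07, limma adjusted p = 0.0469, and 0.118 to 0.185 with 1 library left out, whichever it was). PSMD12 went from 26.2 ± 0.667 to 30.2 ± 0.190 FPKM (limma adjusted p = 0.0763) and PSMD8 from 38.0 ± 4.99 to 43.2 ± 1.45 FPKM, neither passing. PSMD14, the deubiquitinase of the lid, was at 14.8 ± 0.577 and 14.4 ± 0.416 FPKM, and PSMD7, its catalytically inactive partner, at 23.9 ± 0.0973 and 24.6 ± 0.692 FPKM. PSMD3 was at 41.6 ± 1.19 and 40.5 ± 0.338 FPKM, PSMD11 at 18.0 ± 0.135 and 19.02 ± 1.72 FPKM, and PSMD6 at 7.90 ± 0.770 and 7.26 ± 0.300 FPKM. The groups overlapped for these 3 and for PSMD14.

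The assembly factors had a median log2 change of -0.17, and 6 of 7 had a change below 0, as had 6704 of all 13379 tested genes. The tested genes within 5 Mb had medians of -0.23 around PSMD10, -0.24 around PSMG2, -0.13 around PSMD9, -0.06 around PSMG3, -0.05 around PSMG1 and -0.01 around PSMG4. The medians of their chromosomes were -0.15 for PSMD10 (X), -0.19 for PSMG2 (18) and -0.13 for PSMG1 (21). They were above 0 for the rest, at 0.07 for PSMD9 (12), 0.03 for PSMG3 (7) and 0.03 for PSMG4 (6). The part of these regions in the changes was not tested. The exception was PSMD5, a base chaperone, which rose: it stood at 10.6 and 11.7 FPKM at 0 Gy and at 14.4 and 16.2 FPKM at 30 Gy. That is 1.37 times higher (log2 change 0.42 ± 0.09, limma adjusted p = 0.0344). With 1 library left out its log2 change lay between 0.34 and 0.50, and the call was not kept in every omission. The 45 genes tested around PSMD5 had a median of -0.01. PSMD10 (gankyrin), another base chaperone, went from 45.6 ± 0.242 to 39.9 ± 1.25 FPKM and passed with voom (adjusted p = 0.0480) but not with limma (adjusted p = 0.0829). The 4 core chaperones did not pass. PSMG1 was at 23.3 ± 1.10 and 20.5 ± 1.97 FPKM and its partner PSMG2 at 16.9 ± 0.576 and 14.9 ± 1.12 FPKM. PSMG3 was at 28.5 ± 2.75 and 27.5 ± 0.181 FPKM and its partner PSMG4 at 1.74 ± 0.156 and 1.41 ± 0.158 FPKM. PSMG4 is divided by 10418 bases of exon in the table, and its principal transcript has 838, per length of which its level at 0 Gy was 21.7.

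Of the other caps, PSME1, a subunit of the activator induced by interferon, fell. It stood at 60.2 and 60.8 FPKM at 0 Gy and at 47.2 and 51.7 FPKM at 30 Gy, 1.22-fold lower (log2 change -0.29 ± 0.07, limma adjusted p = 0.0451, and 0.0708 to 0.191 with 1 library left out, whichever it was). PSME2, with which PSME1 forms 1 ring, was at 20.8 ± 1.44 and 22.2 ± 0.0919 FPKM without passing, and PSME1 relative to PSME2 went from 275% and 307% to 214% and 233%. The genes are neighbours on chromosome 14, and the median log2 change of 68 tested genes within 5 Mb of PSME1 was 0.01. PSME3, the nuclear activator, was at 40.4 ± 1.57 and 37.0 ± 0.00531 FPKM and PSME4 at 19.01 ± 1.85 and 19.4 ± 0.446 FPKM. The inhibitor PSMF1 was at 19.7 ± 0.150 and 19.9 ± 0.244 FPKM, and neither it nor these activators passed.

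**Figure D4:**
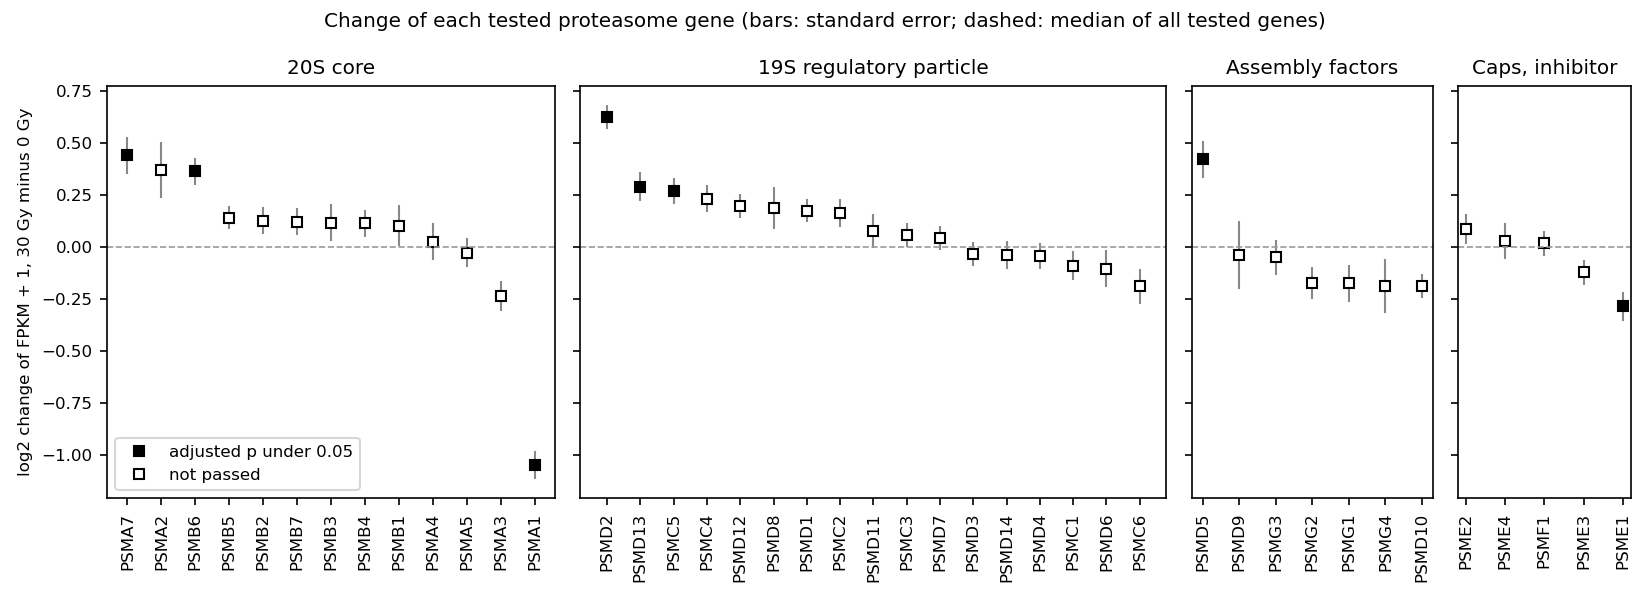
Log2 change, 30 Gy minus 0 Gy, of the 42 tested members with bars of 1 SE, by position in the complex, those past the test filled and the dashed line at the median of all tested genes. PSMD2 (0.62) and PSMA1 (-1.05) lie farthest from 0 and the 7 beta subunits lie between 0.10 and 0.36.

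A second test made on the recovered read counts, limma-voom, called 8 members higher and 4 lower, where it called 15.3% and 16.3% of all tested genes. To those named it added PSMA2 and PSMC4 as higher and PSMA3 and PSMD10 as lower.

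The inducible subunits, which replace PSMB5, PSMB6 and PSMB7 after interferon, did not pass. PSMB8 stood at 15.4 and 13.4 FPKM at 0 Gy and at 12.2 and 12.8 FPKM at 30 Gy (limma adjusted p = 0.190), and relative to PSMB5 it went from 29.99% and 26.9% to 22.0% and 22.8%. PSMB9 was at 2.71 ± 0.503 and 2.42 ± 0.136 FPKM, or 4.81% and 3.99% of PSMB6 at 0 Gy and 2.95% and 3.16% at 30 Gy. PSMB10 was at 6.22 ± 1.29 and 5.42 ± 1.47 FPKM, and its ratio to PSMB7 overlapped between the groups. PSMB10 shares 60.0% of its coding bases with another gene on its strand, so its level is uncertain. The 4 proteasome genes with other kinds of names also did not pass: the maturation factor POMP was at 75.4 ± 2.89 and 66.7 ± 3.77 FPKM and the ubiquitin receptor ADRM1 at 40.0 ± 2.01 and 38.9 ± 5.56 FPKM.

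Of 13 genes whose products bind the proteasome or carry substrates to it, 0 rose and 3 fell (23.1% lower, against 9.06% of all tested genes, of which 10.8% rose). UBQLN2, a shuttle for ubiquitinated proteins, fell from 22.6 ± 1.08 to 17.1 ± 0.745 FPKM. AKIRIN2, which brings proteasomes into the nucleus, fell from 45.9 ± 0.826 to 36.5 ± 1.60 FPKM, and TXNL1, a thioredoxin-like protein on the regulatory particle, from 10.1 ± 0.661 to 7.64 ± 0.651 FPKM (limma adjusted p = 0.0499). Of 9 genes of the transcriptional control of the proteasome, 1 rose and 2 fell, or 11.1% and 22.2%. NFE2L1 stood at 36.5 ± 0.0643 and 36.7 ± 0.907 FPKM and NFE2L2 (NRF2) at 43.8 ± 3.54 and 45.3 ± 0.260 FPKM, with limma adjusted p-values of 0.936 and 0.663. NFE2L3, a related factor, rose from 38.8 ± 2.63 to 51.9 ± 0.692 FPKM. MAFG, a small MAF partner of these factors, fell from 41.2 ± 0.348 to 26.8 ± 2.18 FPKM (limma adjusted p = 0.0105), and KEAP1, the adaptor that leads NRF2 to degradation, from 42.0 ± 0.865 to 34.3 ± 0.458 FPKM.

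Upstream of the proteasome, 2 of 5 genes of ubiquitin and its activation rose and 0 fell, where 10.8% of all tested genes rose and 9.06% fell. The polyubiquitin gene UBB rose from 93.8 ± 3.0 to 135 ± 9.30 FPKM (log2 change 0.52 ± 0.07, limma adjusted p = 0.0135), and the activating enzyme UBA1 from 38.6 ± 0.200 to 49.7 ± 1.18 FPKM. Of 6 genes of the unfoldase VCP and its cofactors, 2 rose and 0 fell, against the same background. VCP, which extracts ubiquitinated proteins for the proteasome, rose from 77.3 ± 1.96 to 106 ± 2.45 FPKM (log2 change 0.45 ± 0.06, limma adjusted p = 0.0113), and its cofactor FAF2 from 12.1 ± 0.781 to 15.6 ± 0.650 FPKM.

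The COP9 signalosome, which is built like the lid of the proteasome, and the chaperonin CCT served as other complexes for comparison. In COP9 2 of 9 genes rose (22.2%, against 10.8% of all tested genes) and 0 fell: COPS7A from 20.9 ± 1.22 to 29.8 ± 0.397 FPKM and COPS3 from 27.2 ± 0.166 to 34.0 ± 2.41 FPKM (limma adjusted p = 0.0438). In CCT 1 of 8 rose, a share of 12.5% that is near that of all genes, and 0 fell: CCT5 from 69.6 ± 0.413 to 85.6 ± 0.0850 FPKM. With 1 library left out and the same genes tested, MAFG passed in 2 of the 4 omissions (limma adjusted p from 0.0333 to 0.105), and UBB in 1 of the 4 (0.0394 to 0.114). The other called genes of these lists did not pass in these omissions. With the filter applied again, COPS7A, VCP, UBB and MAFG passed in some omissions, and the other called genes of the lists did not.

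**Figure D5:**
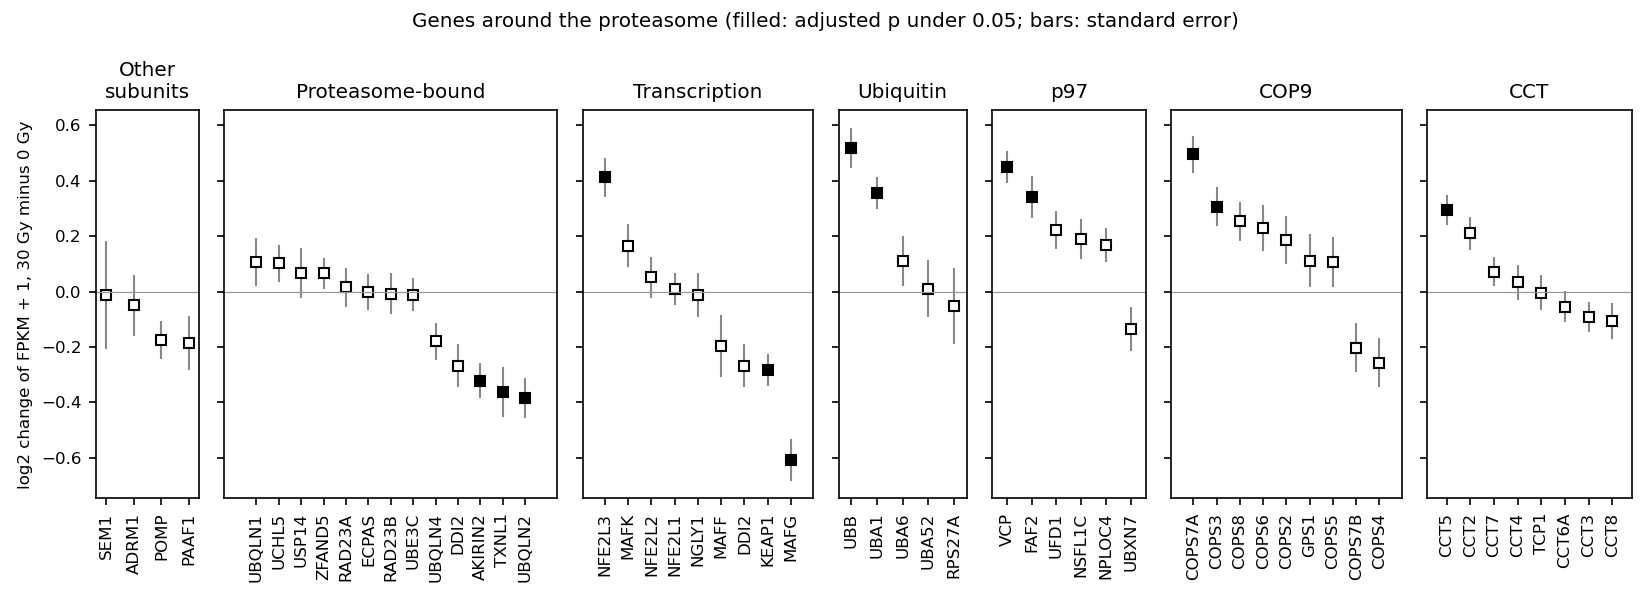
Log2 change, 30 Gy minus 0 Gy, with bars of 1 SE, of the genes around the proteasome in each list, each point 1 gene and those past the test filled. UBB (0.52) and COPS7A (0.50) lie highest and MAFG (-0.61) lowest.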

How the data were processed

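RNA was extracted with Trizol and libraries were made from 0.2 ug of total RNA, per the labels' protocols. Per the submitters' processing notes the build was hg38. The authors deposited FPKM per gene; neither the aligner nor the counting rule is given in the sources used here. In identifier, name and position the 58735 genes match GENCODE v29. FPKM times gene length fell on whole multiples of 1 read for 100% of values (tolerance 0.001), which gave the reads. Groups came from the library names. limma 3.58.1 (R 4.3.3; trend) was fitted to log2(FPKM + 1) of the 13379 genes at 1 FPKM or more in 2 libraries, with 2 residual degrees of freedom; fold changes are on that scale, which understates low genes, and FPKM ratios are of group means. Benjamini-Hochberg adjusted p under 0.05 was called. The fit was tested on simulated data, with fold changes larger than those of every called member but PSMA1 and PSMD2. It gives no measure of calls at smaller changes. The number of libraries, 2 a group, limits the precision. Members and lists were chosen with earlier results of these data known. Every member is named; from each other list the called genes, up to 4 by size of change, or 2 by level where none passed, are named, and PSMB8, PSMB9, PSMB10, NFE2L1 and NFE2L2 always; 1 listed gene is not reported here. The overlap, neighbour and promoter descriptions were added after values were seen. Libraries with the same number did not deviate together (r = -0.03 over 13379 genes), so the number was not treated as pairing. With 2 libraries a group this cannot exclude a pairing.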

Additional observations from a re-analysis of the deposited data

How the results depend on the processing

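Under 9 other settings of the scale, filter, normalization, spread and test, PSMA1 and PSMD2 stayed past the threshold, PSMB6 in 8, PSMD5 in 7, PSMA7 and PSME1 in 6, and PSMC5 and PSMD13 in 4. Of the called genes of the other lists, TXNL1 and COPS3 passed in 4, CCT5 and KEAP1 in 6, and the rest in 7 or 8. The numbers of genes called in all (2654), of members higher (6) and of members lower (2) became 604, 1 and 1 with no filter on low values. Members higher and lower became 2 and 1 without the trend, and voom called 4231 genes and 4 members lower. They were 4 and 2 with median centring and 4 and 3 with quantile normalization, and PSMC5 and PSMD13 passed in neither. With the replicate block, members higher and lower became 3 and 1. The labels do not say whether the replicate numbers pair the libraries. Leaving out the 4 overlapped members left 1 lower. With 1 library left out, including fits with the filter reapplied (added after seeing the data, like the omission of overlapped members), the numbers ranged from 0 to 1411 genes, 0 to 2 members higher and 0 to 1 lower. In those fits the median log2 change ranged from 0.0205 to 0.0848 over all member genes, 0.0603 to 0.166 in the core, 0.0545 to 0.152 in the regulatory particle, -0.195 to -0.0922 for the assembly factor genes and -0.0667 to 0.0181 for the cap genes. The cap median (0.02), which is the value of PSMF1, was -0.00209 with median centring, 0.0127 with quantile normalization and -0.000663 with voom. Of 1048 values of single genes 41, from 15 genes and none of a called gene, changed sign; the cause was not tested. NFE2L1 did so with median centring (-0.00965), quantile normalization (-0.0298) and voom (-0.00886), and with quantile normalization PSMA4 (-0.00639) and PSMC3 (-0.00783). With 1 library left out the log2 change ranged from -0.0540 to 0.101 for PSMA4, -0.0724 to 0.0157 for PSMA5, -0.0164 to 0.217 for PSMB1, -0.0131 to 0.162 for PSMD11 and -0.0939 to 0.00293 for PSMD4. It ranged from -0.165 to 0.0845 for PSMD9, -0.0667 to 0.123 for PSME4, -0.146 to 0.0443 for PSMG3, -0.192 to 0.0939 for ADRM1 and -0.0166 to 0.0325 for NFE2L1. It ranged from -0.0298 to 0.132 for NFE2L2, -0.413 to 0.0589 for PSMB10 and -0.250 to 0.0272 for PSMB9. With 2 libraries a group, changes as small as those of most members cannot be told from the spread.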
